A study of Rattus with 6 samples.

Results

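The 59 genes of the integrated stress response and of tRNA charging were compared between vascular smooth muscle cultures that received an siRNA against CDCP1 and cultures that received a control siRNA, all under angiotensin II. The genes were chosen by name among the protein-coding rows of the deposited table (59 of 54012 genes, 22058 of them protein coding). The choice drew on what is known of the pathway, but was made with earlier results of these data known. They comprise 9 regulators, 9 enzymes of amino acid synthesis, 6 amino acid transporters, 20 cytosolic and 15 mitochondrial tRNA synthetases, and every one of the 59 had 1 row and had a mean over the libraries of 1 FPKM or more, the filter used (FPKM is fragments scaled to gene length and to library size). The si-NC group consists of 3 libraries with the genotype label WT and the si-CDCP1 group of 3 libraries with the genotype label CDCP1 knockdown. Both are labelled as primary cultures of smooth muscle cells from aorta, kept in DMEM with serum and exposed to Ang II, a vasoconstrictor peptide, once the siRNA had been given. A culture without Ang II or without siRNA was not analysed here. The organism label is rat, while the table lists mouse genes (build mm10). Mouse symbols are used here, and which species the reads came from was not tested.

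The integrated stress response begins with kinases that phosphorylate the translation factor eIF2, which lowers general protein synthesis and lets the mRNA of the transcription factor ATF4 be translated. ATF4, with partners such as C/EBP proteins and CHOP (the product of Ddit3), raises genes that make and import amino acids and genes that charge tRNAs. The aminoacyl-tRNA synthetases join each amino acid to its tRNA. Most have a cytosolic form and a separate nuclear-encoded mitochondrial form, and ATF4 is known chiefly for its targets among the cytosolic forms. In smooth muscle this response is known for its part in the switch of the cells toward growth, matrix formation and calcification.

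Reads that fell in genes numbered 16050517 to 19771638 per library. Cdcp1, the target of the siRNA, had 2, 2 and 1 reads in si-NC and 0, 5 and 0 reads in si-CDCP1 (exact two-sided permutation test, p = 1, where 3 against 3 can reach no less than 0.1), so the group labels could not be checked by the knockdown. Of 10 smooth muscle markers 3 averaged 1 FPKM or more (Acta2, Cald1 and Smtn), while the defining contractile genes Myh11, Cnn1 and Tagln were near 0, with si-NC means of 0.0130, 0.0635 and 0.161 FPKM. The summed level of the 10 ran from 61.5 to 66.8 FPKM in si-NC and from 61.2 to 94.6 FPKM in si-CDCP1, with the highest sum in si-CDCP1 replicate 3. Acta2 was at 64.2 FPKM in that library and at 34.4 to 42.0 FPKM in the others. Cald1, Smtn, Myocd and Myh11 were also highest there, while Lmod1, Des, Mylk and Tagln were lowest there and Cnn1 lay in between. The summed level of the 6 fibroblast markers lay between 379 and 420 FPKM in si-NC and between 383 and 440.1 FPKM in si-CDCP1. Most of it came from the collagen genes Col1a1 and Col1a2, with si-NC means of 279 and 104 FPKM. Pdgfra, Dcn, Dpt and Lum had si-NC means of 10.4, 1.27, 0.337 and 0.00678 FPKM. The sum of the 4 adipocyte markers lay between 9.34 and 11.9 FPKM in si-NC and between 12.2 and 18.6 FPKM in si-CDCP1. Adipoq was at 0 in all 6 libraries. The part of these markers in the results below was not tested. The library of si-CDCP1 replicate 3 stood apart, with correlations (Pearson, log2 scale, across genes) of 0.979 to 0.983 with the other 5 libraries, which ranged from 0.988 to 0.991 among themselves, and results are therefore given with and without it.

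The genes of this set were strongly expressed in both groups, the mitochondrial synthetases excepted. Levels are in FPKM, scaled to the deposited gene length, which for Atf4 (2358 bases) is the whole span of the gene. Such a length can exceed that of the mRNA, so levels and ranks compare only roughly between genes. In si-NC replicate 1, Qars (6572 bases) had 1755 reads and 13.3 FPKM, and Hars (1987 bases) had 1339 reads and 33.5 FPKM. Averaged over the 6 libraries, Atf4 was at 367 FPKM and ranked 55 among the 22058 protein-coding genes. The pseudokinase gene Trib3 ranked 131, the glutathione-degrading enzyme gene Chac1 102, the asparagine synthetase gene Asns 88 and the serine synthesis gene Phgdh 81. Of the 44 genes other than mitochondrial synthetases, 28 were among the 500 highest protein-coding genes, and their means ran from 12.4 FPKM for Qars to the 367 FPKM of Atf4. The 15 mitochondrial synthetases were far lower, from 1.71 FPKM for Nars2 to 12.1 FPKM for Rars2. The lowest cytosolic synthetase, Qars, did not differ from Rars2 beyond the spread of the libraries (10.7 to 13.4 FPKM against 10.7 to 14.2 FPKM), and no other cytosolic synthetase was within the mitochondrial range. A mitochondrial synthetase gene rested on 138 to 2260 reads per library and the other genes on 1098 to 41068 reads, so the former carry more counting error. The median coefficient of variation within si-NC was 6.79% for the mitochondrial synthetases and 2.03% for the other genes.

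**Figure D1:**
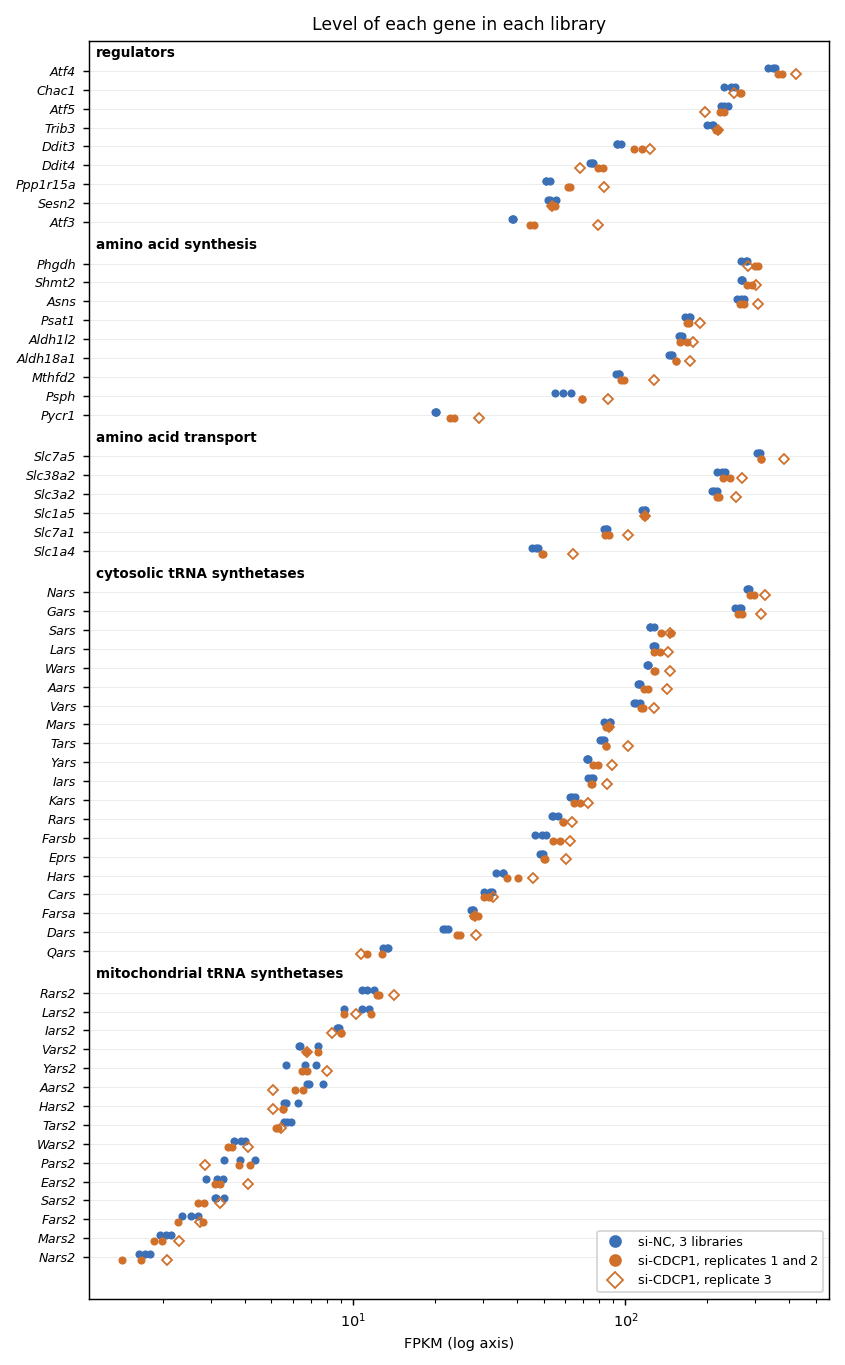
Level of each of the 59 genes in each of the 6 libraries, in FPKM on a log axis, by role and ordered by mean. Blue points are the 3 si-NC libraries, orange points si-CDCP1 replicates 1 and 2, and open diamonds si-CDCP1 replicate 3; the diamond is the highest point for 41 of the 59 genes.

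Most of these genes had somewhat higher values in si-CDCP1, but none passed the test. On log2(FPKM + 1), 47 of 59 had a positive log2 difference (si-CDCP1 minus si-NC), against 52.3% of all 12080 genes tested. The median was 0.10 against 0.01 over all genes. Of the 7633 protein-coding genes that averaged 5 FPKM or more, 4465 were positive, with a median of 0.03. The limma moderated test, adjusted over all genes by Benjamini-Hochberg, called 0 of the 59 at 0.05, as it called 0 of all 12080 (0.0%). At an unadjusted p under 0.05 there were 15 genes with higher and 2 with lower values, where 8.94% and 5.31% of all genes tested lay. Of the 7633 protein-coding genes that averaged 5 FPKM or more, 906 were higher and 359 lower at that p. In 27 genes every si-CDCP1 library was above every si-NC library (14.4% of all genes, and 19.3% of protein-coding genes that averaged 5 FPKM or more), and in 4 every si-CDCP1 library was below (10.6% and 9.89%). A change in the share of expressing cells and a change in RNA per cell cannot be told apart in such bulk samples.

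Without si-CDCP1 replicate 3 the log2 difference was smaller in size for 45 of the 59 genes and larger for 14, such as Phgdh, Ddit4 and Chac1 (0.15, 0.10 and 0.13). It kept its sign in 57 and changed it in 2, Cars (0.01 to -0.02) and Pars2 (-0.08 to 0.04). The examples here were picked after their values were seen. Without that library 47 of the 59 differences were again positive and the median was 0.05 in place of 0.10, with 17 genes higher and 0 lower at an unadjusted p under 0.05 (10.8% and 5.81% of all genes). Without it, 30 genes were fully above and 6 fully below si-NC (19.9% and 16.2% of all genes). Of the 7633 protein-coding genes that averaged 5 FPKM or more, 4372 were then positive, with a median of 0.02. In that fit 1110 of them were higher and 450 lower at that p, and 1942 were fully above and 1185 fully below si-NC. The scaling between libraries mattered too: with each library set to the same FPKM sum the 59 genes had 39 positive differences and a median of 0.05, with 7 higher and 2 lower at an unadjusted p under 0.05. All genes then split into 537 higher (4.45%) and 1301 lower (10.8%) at that p, as against 1080 and 642 with the deposited scaling, and the median of all genes moved from 0.01 to -0.04. Positive differences fell to 4634 of all 12080 genes, from 6314 with the deposited scaling. With quantile normalisation 37 of the 59 were positive and the median was 0.03, with 8 higher and 3 lower at that p (6.54% and 6.61% of all genes). In that fit 5933 of all 12080 genes were positive. The positive counts given below for these 2 scalings stand beside these numbers for all genes.

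**Figure D2:**
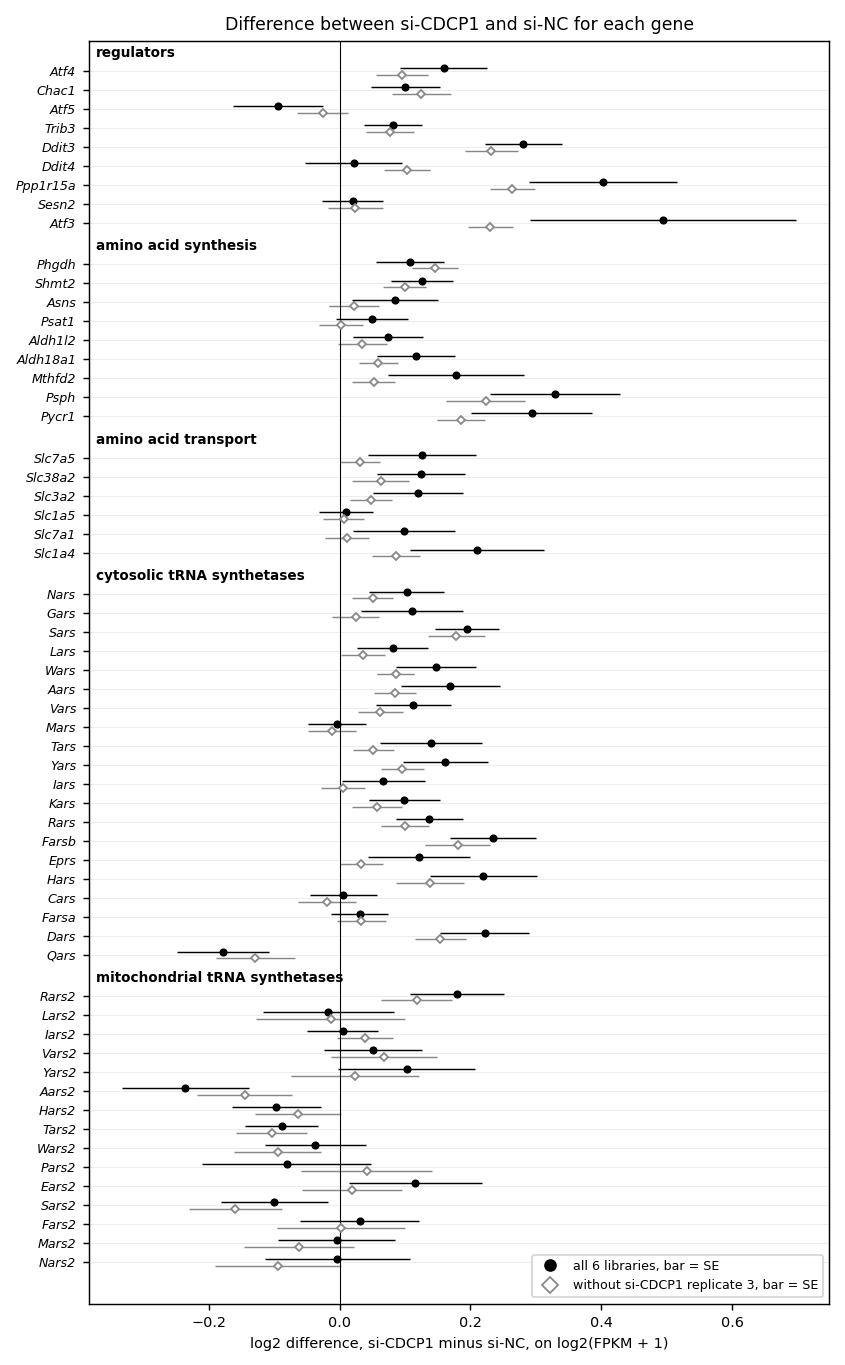
Log2 difference of each gene between si-CDCP1 and si-NC on the log2(FPKM + 1) scale, by role and ordered by mean level, with its standard error. Black points use all 6 libraries and open diamonds leave out si-CDCP1 replicate 3; Atf3 and Ppp1r15a lie farthest to the right and Aars2 farthest to the left.

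Among the 9 regulators, Ddit3, Ppp1r15a, Atf3 and Atf4 had the smallest p-values, each with all si-CDCP1 libraries above si-NC. Atf4 (ENSMUSG00000042406, mm10 chromosome 15, 80255184 to 80257541), the central transcription factor, was at 355, 334 and 349.5 FPKM in si-NC replicates 1 to 3 and at 376, 363 and 422 FPKM in si-CDCP1. The lowest si-CDCP1 library exceeded the highest si-NC library by little, and replicate 3 was the highest. The means of 346 ± 10.8 and 387 ± 30.9 FPKM (SD, n = 3 each) gave a log2 difference of 0.16 (SE 0.067, limma adjusted p = 0.35), and 0.10 without si-CDCP1 replicate 3.

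Ddit3 (ENSMUSG00000025408, chromosome 10, 127290774 to 127296288), which encodes the ATF4 partner CHOP, was at 93.3, 93.1 and 96.3 FPKM in si-NC and at 115, 107 and 123 FPKM in si-CDCP1. Every si-CDCP1 library was above si-NC, and the si-CDCP1 libraries spread more widely than the si-NC libraries, with means of 94.2 ± 1.78 and 115 ± 7.87 FPKM, 21.9% apart. Its log2 difference was 0.28 (SE 0.059, limma adjusted p = 0.267) and 0.23 without si-CDCP1 replicate 3. The last 68 bases of Ddit3 overlap Mars on the opposite strand, and Mars, at 86.6 ± 2.48 and 86.3 ± 1.09 FPKM, had a log2 difference of -0.00. A further gene model on the same strand, AC144852.1, shares 2925 bases with Ddit3 and is listed at 0. The strand setting of the counting is not given in the sources used here, so reads in that stretch cannot be assigned.

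Ppp1r15a (ENSMUSG00000040435, chromosome 7, 45522916 to 45526268) encodes GADD34, the subunit that directs a phosphatase to eIF2 and so ends the response. It was at 50.8, 51.0 and 52.7 FPKM in si-NC and at 61.4, 62.7 and 83.2 FPKM in si-CDCP1. Replicates 1 and 2 agreed and replicate 3 was far above them. The log2 difference was 0.40 (SE 0.11, limma adjusted p = 0.275) and 0.26 without replicate 3.

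Atf3 (ENSMUSG00000026628, chromosome 1, 191170296 to 191218039), a transcription factor induced by many stresses, showed this pattern most strongly. The si-NC libraries were at 38.8, 38.2 and 38.6 FPKM, si-CDCP1 replicates 1 and 2 at 44.5 and 46.2 FPKM, and replicate 3 at 79.3 FPKM. Replicate 3 was 1.92 times the mean of the other 5 libraries, and Atf3 alone of the 59 genes was more than 1.5-fold above every other library there. The log2 difference of 0.49 (SE 0.20, limma adjusted p = 0.344) went to 0.23 without that library.

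The other 5 regulators differed less. Trib3, an ATF4 target that inhibits AKT, was at 209.7, 208 and 199 FPKM in si-NC and at 218, 215 and 219 FPKM in si-CDCP1, without overlap but with a log2 difference of 0.08 (SE 0.044, limma adjusted p = 0.423). Chac1 averaged 242 ± 11.1 and 259 ± 7.67 FPKM, Sesn2, whose product sestrin 2 restrains mTORC1 when leucine is short, 53.4 ± 1.94 and 54.2 ± 0.943 FPKM, and Ddit4, which encodes the mTORC1 inhibitor REDD1, 75.1 ± 1.07 and 76.5 ± 7.56 FPKM. The groups overlapped in each of these 3. Atf5, a transcription factor of the same family that is also linked to mitochondrial stress, was the only regulator with a negative log2 difference, -0.09 (SE 0.069, limma adjusted p = 0.528), at 231 ± 7.37 and 217 ± 17.7 FPKM. The regulators' median was 0.10, and 0.10 without si-CDCP1 replicate 3, with 8 of 9 positive in both fits; it was 0.05 with equal FPKM sums and 0.03 with quantile normalisation, where 6 and 5 of the 9 were positive.

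**Figure D3:**
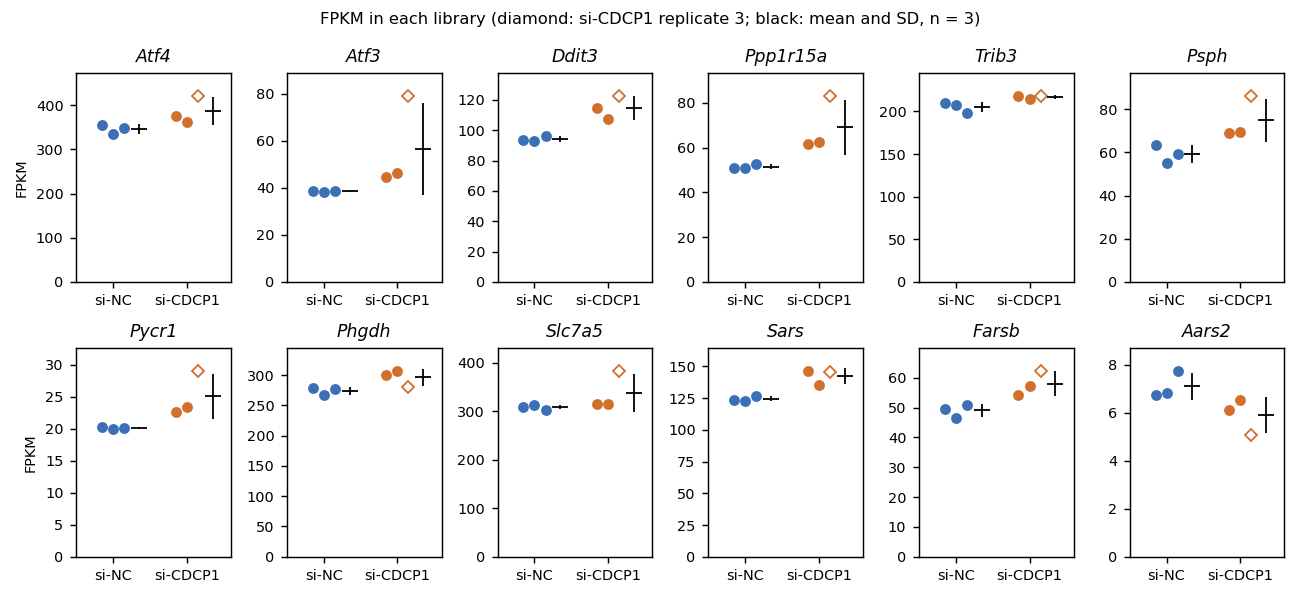
FPKM of 12 of the genes in each library, from 0 on a linear axis, with blue points for si-NC, orange points for si-CDCP1 replicates 1 and 2, open diamonds for si-CDCP1 replicate 3, and the mean and SD (n = 3) in black. The groups do not overlap in any of the 12, whereas of all 59 genes 27 were fully above and 4 fully below si-NC. In Atf3 and Slc7a5 the diamond lies far above the other si-CDCP1 points.

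All 9 enzymes of amino acid synthesis had positive log2 differences, and Psph, Pycr1, Shmt2 and Phgdh had the smallest p-values. Psph (ENSMUSG00000029446, chromosome 5, 129765558 to 129787449), the phosphatase of the last step of serine synthesis, was at 63.3, 54.9 and 59.2 FPKM in si-NC and at 69.0, 69.2 and 86.3 FPKM in si-CDCP1. The groups did not overlap, and the log2 difference was 0.33 (SE 0.099, limma adjusted p = 0.289), or 0.22 without si-CDCP1 replicate 3. Psph shares 452 bases with a Cct6a transcript on the opposite strand that averaged 102 FPKM, so some of its reads are uncertain. Pycr1 (ENSMUSG00000025140, chromosome 11, 120635712 to 120643769), which makes proline in mitochondria, was at 20.2, 20.01 and 20.1 FPKM in si-NC and at 22.6, 23.4 and 29.1 FPKM in si-CDCP1. The si-NC libraries were nearly equal, and the log2 difference was 0.29 (SE 0.092, limma adjusted p = 0.298), or 0.19 without replicate 3.

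Phgdh (ENSMUSG00000053398, chromosome 3, 98313170 to 98339990), the first enzyme of serine synthesis, was unusual in that si-CDCP1 replicate 3 was its lowest si-CDCP1 library. It was at 279, 267 and 278 FPKM in si-NC and at 299.8, 307 and 281 FPKM in si-CDCP1. Its log2 difference was 0.11 (SE 0.052, limma adjusted p = 0.385) and was 0.15 without that library. Shmt2, which turns serine into glycine and one-carbon units in mitochondria, was at 268, 267 and 266 FPKM in si-NC and at 293, 279.9 and 303 FPKM in si-CDCP1, a log2 difference of 0.13 (SE 0.047, limma adjusted p = 0.323).

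Psat1 and Asns differed less. Psat1, the middle enzyme of serine synthesis, was at 172, 165 and 171 FPKM in si-NC and at 169, 171 and 187 FPKM in si-CDCP1, with a log2 difference of 0.05 (SE 0.055) that was 0.00 without si-CDCP1 replicate 3. Asns, which makes asparagine, was at 272, 257 and 265 FPKM in si-NC and at 265, 273 and 306 FPKM in si-CDCP1, with a log2 difference of 0.08 (SE 0.066) that was 0.02 without that library. In both genes the groups overlapped, and under quantile normalisation the differences were negative (-0.05 and -0.02).

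Mthfd2, a mitochondrial enzyme of the folate cycle, was at 94.8, 92.2 and 95.1 FPKM in si-NC and at 98.8, 96.2 and 127 FPKM in si-CDCP1, so that its log2 difference of 0.18 (SE 0.10, limma adjusted p = 0.443) went to 0.05 without si-CDCP1 replicate 3. Aldh18a1, the first enzyme of proline synthesis from glutamate, averaged 147 ± 1.99 and 159.6 ± 11.3 FPKM, and Aldh1l2, which oxidises formyl-tetrahydrofolate in mitochondria, 159 ± 1.596 and 168 ± 9.32 FPKM. The median of the 9 enzymes was 0.12, or 0.06 without si-CDCP1 replicate 3, 0.06 with equal FPKM sums (8 of 9 positive) and 0.03 with quantile normalisation (6 of 9 positive).

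The 6 amino acid transporters rested on si-CDCP1 replicate 3 most of all, since each had its highest value there. Slc7a5, the LAT1 carrier of leucine and other large neutral amino acids, was at 309, 312 and 303 FPKM in si-NC and at 315, 315 and 384 FPKM in si-CDCP1. Its partner Slc3a2, the 4F2 heavy chain that brings LAT1 to the membrane, was at 216, 208 and 211 FPKM in si-NC and at 217, 220.4 and 255 FPKM in si-CDCP1. In both genes si-CDCP1 replicates 1 and 2 sat just above the si-NC range, and the log2 differences of 0.13 (SE 0.083, limma adjusted p = 0.485) and 0.12 (SE 0.069, limma adjusted p = 0.438) went to 0.03 and 0.05 without replicate 3.

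Slc1a4, which carries alanine, serine and cysteine, had the largest difference of the transporters, at 46.8, 45.3 and 47.8 FPKM in si-NC and 49.5, 49.7 and 64.4 FPKM in si-CDCP1 (log2 difference 0.21, SE 0.10, limma adjusted p = 0.387, and 0.09 without replicate 3). Slc38a2, the SNAT2 carrier of small neutral amino acids, was at 231, 218 and 227 FPKM in si-NC and at 228, 243 and 267 FPKM in si-CDCP1, with overlap (log2 difference 0.12, SE 0.067, limma adjusted p = 0.42). Slc1a5, the glutamine carrier ASCT2, was level at 117 ± 1.97 and 118 ± 0.844 FPKM, a log2 difference of 0.01 (SE 0.041). Slc7a1, the CAT1 carrier of arginine and lysine, averaged 84.6 ± 1.09 and 91.1 ± 10.0 FPKM. The transporters' median log2 difference was 0.12 with all libraries and 0.04 without si-CDCP1 replicate 3; it was 0.07 with equal FPKM sums (5 of 6 positive) and 0.04 with quantile normalisation (4 of 6 positive).

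Of the 20 cytosolic tRNA synthetases, 18 had positive log2 differences; the median was 0.12, or 0.055 without si-CDCP1 replicate 3 (17 positive). In 12 of the 20 every si-CDCP1 library was above si-NC (14.4% of all genes, and 19.3% of protein-coding genes that averaged 5 FPKM or more). Without si-CDCP1 replicate 3 the count was also 12 (19.9% of all genes, and 1942 of the 7633 protein-coding genes that averaged 5 FPKM or more). Sars (ENSMUSG00000068739, chromosome 3, 108424865 to 108445209), the seryl-tRNA synthetase, was at 124, 123 and 127 FPKM in si-NC and at 147, 136 and 146 FPKM in si-CDCP1. Its difference did not hang on replicate 3, with a log2 difference of 0.19 (SE 0.049, limma adjusted p = 0.267) and 0.18 without it. Farsb (ENSMUSG00000026245, chromosome 1, 78417975 to 78488897), the beta subunit of phenylalanyl-tRNA synthetase, was at 49.5, 46.6 and 51.0 FPKM in si-NC and at 54.2, 57.3 and 62.4 FPKM in si-CDCP1, a log2 difference of 0.23 (SE 0.066, limma adjusted p = 0.275). Farsa, the alpha subunit of the same enzyme, averaged 27.4 ± 0.241 and 28.1 ± 0.622 FPKM, a log2 difference of 0.03 (SE 0.044).

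Dars (ENSMUSG00000026356, chromosome 1, 128363707 to 128417368), the aspartyl-tRNA synthetase, was at 21.8, 21.3 and 22.3 FPKM in si-NC and at 24.7, 24.1 and 28.2 FPKM in si-CDCP1, a log2 difference of 0.22 (SE 0.068, limma adjusted p = 0.289). Hars, the histidyl-tRNA synthetase, was at 33.5, 35.4 and 35.5 FPKM in si-NC and at 36.7, 40.2 and 45.7 FPKM in si-CDCP1, a log2 difference of 0.22 (SE 0.081, limma adjusted p = 0.321). Without si-CDCP1 replicate 3 these were 0.15 and 0.14. Hars and its mitochondrial counterpart Hars2 lie head to head on opposite strands and share 198 bases, so reads there are uncertain for both.

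Qars, the glutaminyl-tRNA synthetase, went the other way and was named after its values were seen. It was at 13.3, 12.9 and 13.4 FPKM in si-NC and at 12.8, 11.2 and 10.7 FPKM in si-CDCP1, so every si-CDCP1 library was below si-NC. Its log2 difference was -0.18 (SE 0.070, limma adjusted p = 0.334) and -0.13 without si-CDCP1 replicate 3, and it remained negative with equal FPKM sums (-0.23) and with quantile normalisation (-0.19). Mars, the methionyl-tRNA synthetase, was the other cytosolic member with a negative value.

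The remaining cytosolic synthetases lay in between. Rars, Yars and Wars, which charge arginine, tyrosine and tryptophan tRNAs, had log2 differences of 0.14, 0.16 and 0.15 without overlap between the groups. Aars (alanine), Tars (threonine), Eprs (glutamate and proline), Vars (valine) and Nars (asparagine) had 0.17, 0.14, 0.12, 0.11 and 0.10, also without overlap. In these 5 genes si-CDCP1 replicate 3 was 1.24, 1.23, 1.22, 1.14 and 1.14 times the mean of the other 5 libraries, and the differences were 0.08, 0.05, 0.03, 0.06 and 0.05 without it. Gars (glycine), Kars (lysine), Lars (leucine), Iars (isoleucine) and Cars (cysteine) had 0.11, 0.10, 0.08, 0.07 and 0.01 with overlapping groups. With equal FPKM sums 16 of the 20 differences were positive (median 0.06), and with quantile normalisation 15 (median 0.03).

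The 15 mitochondrial tRNA synthetases showed no common direction: 6 had positive and 9 negative log2 differences, the median being -0.0045, and -0.01 without si-CDCP1 replicate 3 (7 positive). Rars2 (ENSMUSG00000028292, chromosome 4, 34614957 to 34660167), the arginyl form, was at 11.2, 10.7 and 11.9 FPKM in si-NC and at 12.4, 12.2 and 14.2 FPKM in si-CDCP1, and was the only one wholly above si-NC (log2 difference 0.18, SE 0.072, limma adjusted p = 0.34). Aars2 (ENSMUSG00000023938, chromosome 17, 45506841 to 45520842), the alanyl form, was at 6.73, 6.85 and 7.77 FPKM in si-NC and at 6.12, 6.54 and 5.07 FPKM in si-CDCP1, wholly below (log2 difference -0.24, SE 0.096, limma adjusted p = 0.344, and -0.14 without si-CDCP1 replicate 3). Its cytosolic counterpart Aars was wholly above si-NC, and the difference between the 2 changes was not tested.

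Tars2, the threonyl form, was at 5.89, 5.71 and 5.54 FPKM in si-NC and at 5.21, 5.28 and 5.44 FPKM in si-CDCP1, and Hars2, the histidyl form, at 6.28, 5.66 and 5.54 FPKM and at 5.52, 5.53 and 5.09 FPKM. Both were wholly below si-NC, by small amounts (log2 differences of -0.09, SE 0.056, and -0.10, SE 0.068; limma adjusted p = 0.473 and 0.514). The other 11 overlapped between the groups, from -0.10 for Sars2 to 0.12 for Ears2, the seryl and glutamyl forms. With equal FPKM sums 4 of the 15 differences were positive and with quantile normalisation 7. On the log2(FPKM + 1) scale the changes of such low genes are understated; in limma voom on recovered reads the median was -0.015.

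The libraries can also be placed by the median distance of each gene group from the si-NC mean of the same genes, on the log2 scale. For the cytosolic synthetases these medians were 0.07 and 0.06 in si-CDCP1 replicates 1 and 2 and 0.22 in replicate 3, for the synthesis enzymes 0.07, 0.07 and 0.21, and for the transporters 0.02, 0.05 and 0.27. In each of these 3 groups replicate 3 was the farthest out and the other si-CDCP1 libraries were still above the si-NC libraries, whose medians spanned -0.03 to 0.02 and lie near 0 by construction. The regulators had another order, with 0.13, 0.07 and 0.09. The mitochondrial synthetases were at 0.01, -0.06 and 0.02. The highest of the 6 libraries was si-CDCP1 replicate 3 for 41 of the 59 genes, against 34.0% of all genes. Among the 7633 protein-coding genes that averaged 5 FPKM or more it was the highest for 3121. By role it was the highest for 5 of 9 regulators, 8 of 9 synthesis enzymes, 6 of 6 transporters, 16 of 20 cytosolic and 6 of 15 mitochondrial synthetases.

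**Figure D4:**
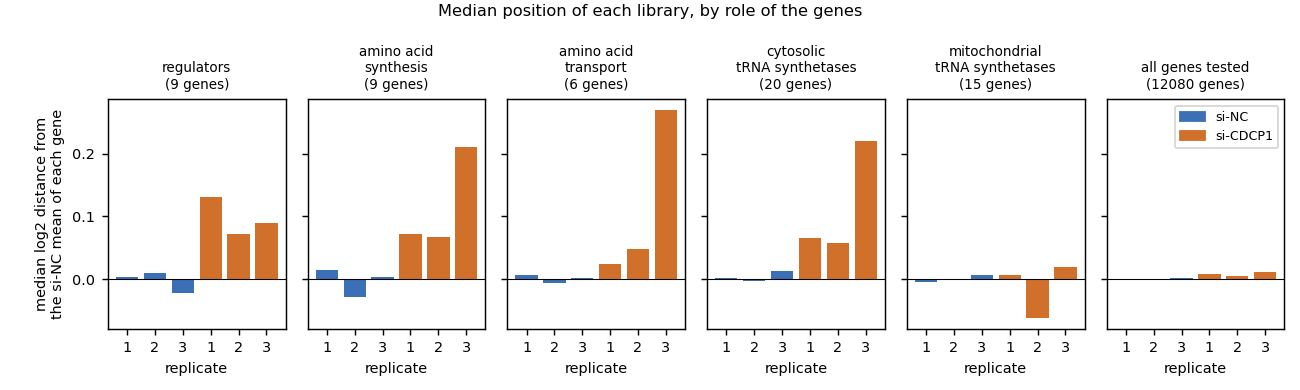
Median log2 distance of each library from the si-NC mean of the same genes, for the 5 gene roles and for all 12080 genes tested, with si-NC in blue and si-CDCP1 in orange. In synthesis, transport and cytosolic synthetases the bar of si-CDCP1 replicate 3 (0.21, 0.27 and 0.22) is the tallest, while over all genes the tallest bar is 0.01.

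Genes upstream and around this set were taken from lists drawn up by function. Of 15 genes of eIF2 kinases and eIF2 control, 10 had positive differences with a median of 0.03. In limma with equal library weights and all 6 libraries 0 passed. The kinases themselves, named for their role after their values were seen, were Eif2ak1 (HRI), Eif2ak2 (PKR), Eif2ak3 (PERK) and Eif2ak4 (GCN2), with log2 differences of -0.02, -0.02, 0.07 and -0.12. Eif2ak2 was at 47.2, 46.9 and 48.0 FPKM in si-NC and at 40.0, 43.9 and 57.9 FPKM in si-CDCP1, below si-NC in replicates 1 and 2 and above it in replicate 3. It had a log2 difference of -0.17 without that library; its adjusted p was 0.0331 in limma voom without it and at most 0.981 over the alternatives. Ppp1r15b, the constitutive counterpart of Ppp1r15a, was at 43.0, 41.6 and 43.0 FPKM in si-NC and at 45.7, 48.4 and 54.3 FPKM in si-CDCP1 (log2 difference 0.21, SE 0.069, limma adjusted p = 0.299). Eif2s1, the eIF2 subunit that is phosphorylated, had 0.18 (SE 0.061) and Impact, a GCN2 inhibitor, 0.23 (SE 0.081). With limma's library weights, described below, the limma adjusted p of Ppp1r15b, Eif2s1 and Impact was 0.0348, 0.0399 and 0.0531. In limma voom without si-CDCP1 replicate 3 it was 0.0648, 0.0565 and 0.116.

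Of 17 tested partners and other known targets of ATF4 (18 in the table), 16 had positive differences, with a median of 0.14, or 0.08 with 12 positive without si-CDCP1 replicate 3. With equal FPKM sums, and likewise with quantile normalisation, 13 were positive. Cebpb, which encodes a partner of ATF4, was at 106, 112 and 110.1 FPKM in si-NC and at 139, 138 and 128 FPKM in si-CDCP1, with a log2 difference of 0.30 (SE 0.052, limma adjusted p = 0.238) that was 0.34 without si-CDCP1 replicate 3. Over the alternatives its adjusted p ran from 0.000199 to 0.645. Eif4ebp1, a repressor of cap-dependent translation, was at 153 FPKM in each si-NC library and at 175, 173 and 179 FPKM in si-CDCP1 (log2 difference 0.20, SE 0.041, limma adjusted p = 0.267). For the autophagy receptor gene Sqstm1 the log2 difference was 0.28 (SE 0.066). With limma's library weights the limma adjusted p of Cebpb, Eif4ebp1 and Sqstm1 was 0.00899, 0.0196 and 0.0207. In limma voom without si-CDCP1 replicate 3 it was 0.000199, 0.00607 and 0.000238. Both fits are described below, with the shares of all genes called. Slc7a11, the cystine carrier, and Gdf15, a stress cytokine, chosen after their values were seen, had log2 differences of 0.02 and 0.03. These genes passed in neither fit.

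Scaffolds of the multisynthetase complex and further synthetases had 7 of 10 positive differences (median 0.09). Eef1e1, a scaffold protein of the complex, was at 11.1, 10.3 and 10.3 FPKM in si-NC and at 13.2, 12.8 and 14.99 FPKM in si-CDCP1 (log2 difference 0.34, SE 0.070, limma adjusted p = 0.267). Aimp1, another scaffold, had 0.12 (SE 0.053) and Gatc, a subunit of the mitochondrial glutaminyl-tRNA amidotransferase, 0.22 (SE 0.11). Of 11 further serine, one-carbon and proline enzymes 10 were positive (median 0.13), with Got1, the cytosolic aspartate aminotransferase, at 77.5, 76.9 and 82.1 FPKM in si-NC and 95.6, 91.3 and 119.6 FPKM in si-CDCP1. Pycrl, an enzyme of proline synthesis, had 0.18 (SE 0.065). None of these genes passed the adjusted threshold in limma with equal library weights and all 6 libraries. Eef1e1 and Got1 passed with limma's library weights (limma adjusted p = 0.0249 and 0.0426). They also passed in limma voom without si-CDCP1 replicate 3 (adjusted p = 0.0244 and 0.00408). Aimp1, Gatc and Pycrl passed in neither fit. The shares of all genes called in these fits are given below.

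**Figure D5:**
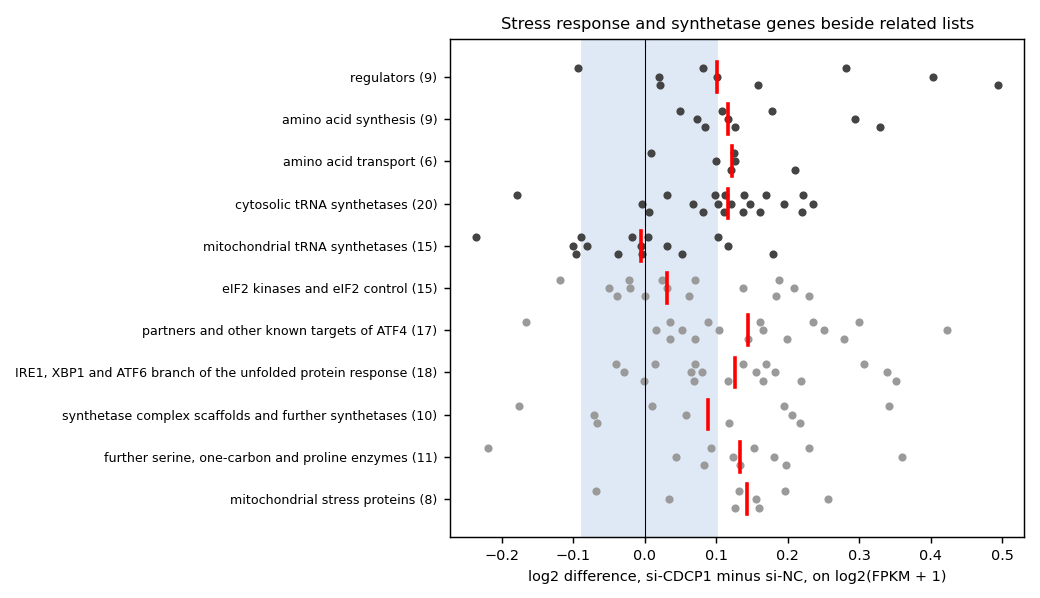
Log2 differences between si-CDCP1 and si-NC for the genes tested in each of the 5 roles (dark points) and in the 6 related lists (grey points), with the median of each list as a red bar and the middle 50% of all genes tested as a shaded band. The medians of 3 roles and of 4 related lists lie right of the band's upper edge at 0.10 and that of the regulators on it, and those of the mitochondrial synthetases (-0.0045), eIF2 control (0.03) and the synthetase scaffolds (0.09) lie inside it.

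Calls among the 59 genes appeared in 2 of the 20 alternative fits, both of which reduce the part of si-CDCP1 replicate 3. With limma's library weights 6 genes rose (Ddit3, Ppp1r15a, Phgdh, Pycr1, Farsb and Hars) and Qars fell, where 4.62% of all genes rose and 2.54% fell. The weights were 0.165 for si-CDCP1 replicate 3, 0.600 for replicate 1 and 5.11 for replicate 2, against 1.08 to 1.37 in si-NC, so that fit leans on a single si-CDCP1 library. Limma voom on recovered reads without si-CDCP1 replicate 3 called 7 genes, all higher (Ddit3, Ppp1r15a, Phgdh, Pycr1, Psph, Atf3 and Sars), where 2.4% of all genes rose and 1.06% fell. The 4 genes Ddit3, Ppp1r15a, Phgdh and Pycr1 were called in both, from the same libraries. Their adjusted p was 0.0301, 0.0263, 0.0356 and 0.0334 with weights and 0.00673, 0.00183, 0.0197 and 0.0446 in that voom fit, and reached 0.645, 0.645, 0.92 and 0.645 in the least favourable fit. With all 6 libraries voom called 0 of the 59 (0.0% of all genes rose and 0.0348% fell), with 17 higher and 2 lower at an unadjusted p under 0.05 (8.21% and 6.61% of all genes). The 59 also had 0 calls with equal FPKM sums, where 0.00828% of all genes fell, with quantile normalisation, where 0.0166% fell, and with the replicate number as a block, where 0.00828% rose.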

How the data were processed

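RNA libraries were made from total RNA with a SMARTer mRNA kit, per the labels' protocols. The authors deposited 1 table of FPKM for the 6 libraries, with gene length and mouse Ensembl identifiers per the file headers, and the build mm10 is per the submitters' processing notes. Not given in the sources used here: aligner, counting tool, strand setting and treatment of reads that match several places. Each FPKM times gene length was a whole multiple of 1 step per library (100.0% of values within 0.01 of a whole read), so reads could be recovered. The steps show that the deposited values had been scaled by median-of-ratios size factors (0.909 to 1.17), and the reads in genes were 98.4% to 104% of the implied totals. In a 1 kb gene 3 reads amount to 0.149 to 0.192 FPKM, a floor that covers counting error only.

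The test was limma 3.58.1 (R 4.3.3) on log2(FPKM + 1) with an intensity trend, two-sided, over 12080 genes averaging 1 FPKM or more, without a replicate block, with Benjamini-Hochberg adjustment at 0.05 over all of them. The fits were also run on simulated counts that had no outlying library and changes larger than most differences reported here. That run cannot show how the fits behave with si-CDCP1 replicate 3 or with changes this small. Nothing in the labels states that replicates are separate isolations, so p-values measure only the spread between libraries, which may be technical. The genes and lists were chosen with earlier results of these data known. The genes given in full are Atf4, Ddit3, Trib3, Asns, Psat1, Phgdh, Mthfd2, Slc7a5, Slc3a2, Cdcp1 and the 4 of smallest p in each role, with up to 3 of each related list (an item that the rule names there is not reported here); the others complete the account. Samples were grouped by title. The alternatives were other pseudocounts (0.1 and 0.01), filters (none, 0.1 and 5 FPKM), quantile normalisation, equal FPKM sums, no trend, library weights, the replicate block, protein-coding genes, removal of each library's length trend (lowess, span 0.3), voom on recovered reads (at least 10 reads in 3 libraries, implied totals as library sizes), with and without si-CDCP1 replicate 3, and each library left out.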

Additional observations from a re-analysis of the deposited data

How the results depend on the processing

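The 59 genes had 0 calls as reported and 7 with library weights, and 7 in voom without si-CDCP1 replicate 3; the other 18 alternatives gave 0. Over all genes the 0 calls became 2 with a filter of 0.1 FPKM, 4 with one of 5 FPKM, 7 with no filter, 2 with quantile normalisation, 1 with equal FPKM sums, 865 with library weights, 2 with protein-coding genes only, 3 with the length trend removed, 5 in voom and 493 in voom without si-CDCP1 replicate 3. With the replicate number as a block 1 gene of all was called and 0 of the 59. Deviations from the group mean correlated at -0.02, 0.03 and 0.02 between same-numbered libraries, and at -0.05 to 0.03 between the others. With 3 libraries per group this cannot decide whether same-numbered samples share a culture or a batch. Leaving out each library in turn gave 0 to 1 calls over all genes and 0 among the 59.

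Median log2 differences with each library left out ranged from 0.048 to 0.13 for the 59 genes and from 0.065 to 0.13 for the regulators, for which 0.13 came without si-NC replicate 1 and 0.065 without si-NC replicate 3. For the synthesis enzymes the range was 0.060 to 0.14, for the transporters 0.040 to 0.17, for the cytosolic synthetases 0.055 to 0.16 and for the mitochondrial ones -0.025 to 0.0065; the first 3 of these ranges begin at the value without si-CDCP1 replicate 3. Quantile normalisation gave 0.030 for the 59 genes, 0.030 for the regulators, 0.029 for the synthesis enzymes and 0.030 for the cytosolic synthetases. Equal FPKM sums gave 0.046 for the regulators and -0.044 for the mitochondrial synthetases, removal of the length trend 0.064 for the regulators, and library weights -0.067 for the mitochondrial synthetases. The deposited FPKM sums were 280056 to 282051 in si-NC and 286916 to 294678 in si-CDCP1. Setting them equal therefore lowers the difference of every gene tested, in these groups and outside them. The cause of the other shifts was not tested. Of 24 genes given in full, 3 values in 480 reversed: Asns (-0.016) and Psat1 (-0.050) with quantile normalisation, and Psat1 (-0.0047) with equal FPKM sums. Another 13 values passed the threshold only under an alternative.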

Other observations

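Mitochondrial chaperones and proteases, which belong to the mitochondrial branch of the stress response, had 7 of 8 positive log2 differences with a median of 0.14, or 0.09 without si-CDCP1 replicate 3; 6 of the 8 were positive with equal FPKM sums and also with quantile normalisation. Hspd1, the chaperonin HSP60, was at 244, 236 and 239 FPKM in si-NC and at 267, 284 and 310.3 FPKM in si-CDCP1, a log2 difference of 0.26 (SE 0.063, limma adjusted p = 0.267). Its partner Hspe1 was at 92.0, 93.0 and 88.5 FPKM in si-NC and at 105, 109 and 99.3 FPKM in si-CDCP1, so that the groups did not overlap and si-CDCP1 replicate 3 was the lowest of its group. Clpp, the mitochondrial matrix protease, had 0.16 (SE 0.052). None of the 8 passed the threshold in limma with equal library weights and all 6 libraries, where 0 of all genes passed. Hspd1 and Hspe1 passed with limma's library weights (limma adjusted p = 0.0198 and 0.0186), and Clpp did not. The same held in limma voom without si-CDCP1 replicate 3 (adjusted p = 0.00388 for Hspd1 and 0.00739 for Hspe1). The shares of all genes called in these fits are given above.

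Of 18 genes of the other branches of the unfolded protein response (IRE1, XBP1 and ATF6), 15 had positive differences with a median of 0.13, or 0.10 with 14 positive without si-CDCP1 replicate 3. Manf, a secreted protein of the endoplasmic reticulum, was at 41.9, 40.5 and 40.2 FPKM in si-NC and at 46.9, 45.1 and 51.3 FPKM in si-CDCP1 (log2 difference 0.22, SE 0.059, limma adjusted p = 0.269), and Dnajb11, a co-chaperone of BiP, had 0.16 (SE 0.051). With equal FPKM sums 14 of the 18 were positive, and with quantile normalisation 12. The limma adjusted p of Manf was 0.0466 with library weights and 0.0445 in limma voom without si-CDCP1 replicate 3. Dnajb11 passed in neither of these fits.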
